A study of Rattus norvegicus with 8 samples.

Results

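The cyclooxygenases, the nitric oxide synthases and endothelin 1 were examined in burned and unburned rat skin by RNA sequencing. The 5 genes were chosen by Ensembl identifier, and all 5 were among the 26404 genes of the count table. They were Ptgs1 (ENSRNOG00000007415) and Ptgs2 (ENSRNOG00000002525), the constitutive and the inducible cyclooxygenase, Nos3 (ENSRNOG00000009348) and Nos2 (ENSRNOG00000011023), the endothelial and the inducible nitric oxide synthase, and Edn1 (ENSRNOG00000014361), the endothelin 1 precursor. The count table gives identifiers only, so the symbols rest on the list that chose the genes. All animals were Sprague-Dawley rats of 125 to 200 g under urethane at 1.5 g/kg, with body temperature held at 37 °C, and the labels give no age, sex or engineered allele. Burn skin (4 libraries) came from the dorsal side of a hind paw dipped to the ankle in saline at 60 °C for 2 min, which gives a deep partial-thickness burn. Control skin (4 libraries) came from the opposite paw, dipped in saline at room temperature at the same time. All of this skin had held a microdialysis probe, so probe injury is shared by both groups, and the time between burn and excision is not stated in the labels.

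Cyclooxygenases turn arachidonic acid into prostaglandin H2, from which prostaglandins, prostacyclin and thromboxane are made. These lipids sensitise pain fibres, widen or narrow vessels and act on platelets. Nitric oxide synthases make nitric oxide from arginine. The endothelial enzyme makes it in small regulated amounts that relax vessel walls, and the inducible enzyme, typical of activated macrophages, makes it in bulk. Endothelin 1 is a peptide of endothelium and keratinocytes that constricts vessels and evokes pain and itch. By textbook convention Ptgs2 and Nos2 are switched on by injury and inflammation, whereas Ptgs1 and Nos3 are present in resting tissue.

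Libraries held 13693811 to 26837925 counts. Burn replicate 3 stood apart from the other 7 libraries. It had 15354 genes with at least 1 count, against 17322 to 17547 elsewhere, and 625 genes with 1 to 3 counts, against 1642 to 2015. Of the genes that averaged 2 to 8 CPM (counts scaled to a common library size) in the other 7 libraries, 4.42% were at 0 in burn replicate 3, against 0.386% to 1.38% for each of the others. The fold changes, the Ptgs2 spread and the profile distances below are given with and without it. Marker genes of vessels, leukocytes and epidermis were not analysed here, so the tissue label was not checked against them. In bulk skin, fewer cells of a type and less RNA per cell cannot be told apart.

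Both constitutive genes were higher in burned skin, Nos3 by 7.16-fold and Ptgs1 by 1.68-fold. Of the inducible genes, Ptgs2 did not pass the test and Nos2 was too scarce to be tested with the rest. Edn1 did not pass the test either. Of the 5 genes, 4 had enough counts to be tested, and 2 of these 4 were higher in burn and 0 lower (edgeR quasi-likelihood test, adjusted p under 0.05). Over all 14240 genes tested, 11.9% were called higher and 10.0% lower. The median log2 fold change was 0.57 over the 4 genes and 0.06 over all genes tested.

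**Figure D1:**
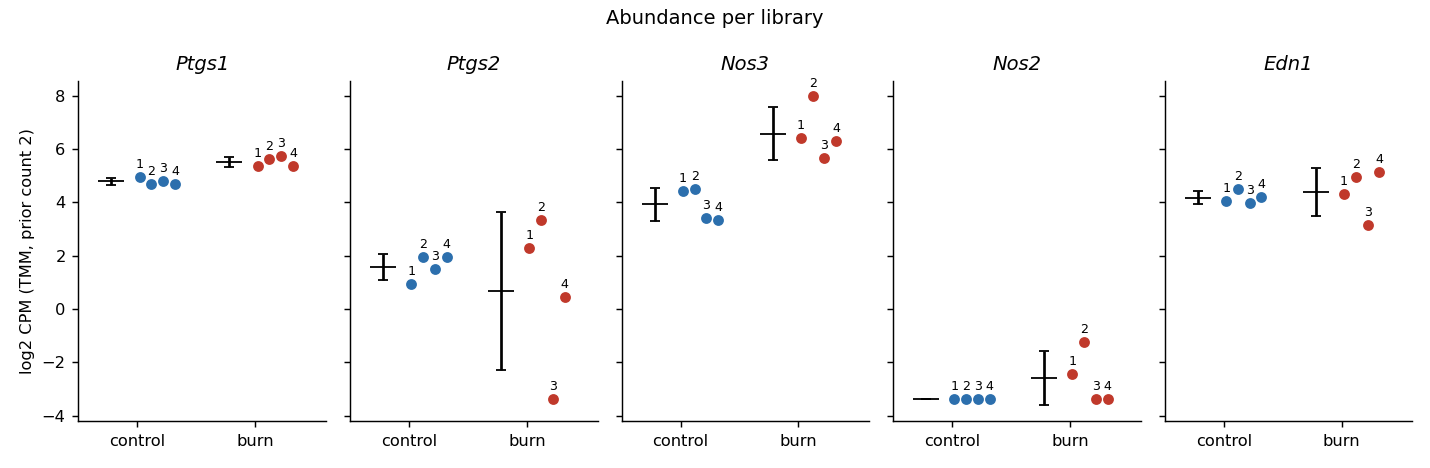
Abundance of each of the 5 genes in each library, in log2 CPM with TMM scaling and a prior count of 2; points are libraries with their replicate number, and the bar beside them is the group mean with its SD (n = 4). Nos3 and Ptgs1 have all 4 burn libraries above all 4 controls, burn replicate 3 has 0 counts of Ptgs2, and Nos2 lies at the value of 0 counts in 6 of 8 libraries.

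The sequences ahead of Nos3 and Ptgs2 are shown for the constitutive gene with the larger rise and for the inducible gene that could be tested. No measurement here links these letters to the RNA levels. RefSeq windows for GRCr8 were found by symbol for 4 of the 5 genes (Ptgs1, Ptgs2, Nos3 and Edn1; Nos2 had no entry). The 250 bases before the annotated start are printed 5′ to 3′ on the gene's strand, Nos3 from chr4:11706582-11706831 (minus strand) and Ptgs2 from chr13:64713813-64714062 (plus strand), with searched motifs in capitals.
Nos3: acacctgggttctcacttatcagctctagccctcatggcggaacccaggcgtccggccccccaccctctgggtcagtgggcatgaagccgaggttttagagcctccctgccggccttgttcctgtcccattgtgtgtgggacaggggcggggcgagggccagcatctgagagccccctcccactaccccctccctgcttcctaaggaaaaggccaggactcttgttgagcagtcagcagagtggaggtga
Ptgs2: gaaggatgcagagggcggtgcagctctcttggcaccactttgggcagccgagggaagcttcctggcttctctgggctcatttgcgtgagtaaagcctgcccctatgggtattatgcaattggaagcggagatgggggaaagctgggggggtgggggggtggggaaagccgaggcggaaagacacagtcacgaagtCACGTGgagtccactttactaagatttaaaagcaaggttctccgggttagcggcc

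A set of 6 motifs was searched on both strands of the full windows of 300 bases, which run 50 bases past the start. They were TATAAA (the TATA box), TGACGTCA (cyclic AMP response element), TGANTCA (AP-1), CACGTG (E-box), an NF-kB motif and a heat shock element, and none is contained in another. The Ptgs2 window held CACGTG 55 bases before the start, the capitals above, as did 6.42% of all 33469 windows. The Edn1 window held TATAAA 110 bases before its start, which 14.2% of windows held. The windows of Nos3 and Ptgs1 held 0 of the 6 motifs. TATAAA was the most frequent of the 6 over all windows, at 14.2%, followed by TGANTCA at 7.33%. The share of windows with 0 of the 6 was not counted. With rates this low a window without a match is common, so the 0 does not set Nos3 and Ptgs1 apart. The printed Nos3 stretch was 62.4% G or C and that of Ptgs2 57.2%, against a median of 51.2% over all windows. A match is a description of these letters and not a measured binding site.

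Nos3 encodes the synthase of vascular endothelium. The burn libraries (replicates 1 to 4) held 977, 3791, 953 and 1294 counts, which were 84.9, 251, 50.0 and 77.9 CPM after TMM scaling. Control replicates 1 to 4 held 545, 659, 214 and 281 counts, which were 21.2, 22.8, 10.6 and 10.1 CPM. Every burn library lay above every control library, and the lowest burn library was 2.19 times the highest control. The mean was 116 ± 91.4 CPM in burn and 16.2 ± 6.80 CPM in control (SD, n = 4). On the log2 scale the difference was 2.84 (SE 0.55, edgeR adjusted p = 0.0108), with a 95% interval of 3.04-fold to 16.9-fold. Only 1.65% of the genes tested had a larger log2 fold change, and 225 of the 1689 genes called higher in burn did.

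The size of the Nos3 rise rested partly on burn replicate 2, the highest library. Without it the burn mean was 70.9 ± 18.4 CPM (SD, n = 3) and the rise was 4.37-fold (log2 fold change 2.13, edgeR adjusted p = 0.00759). Without burn replicate 3 the log2 fold change was 3.09 (edgeR adjusted p = 0.00592). The controls also fell into a higher and a lower pair, replicates 1 and 2 at 21.2 and 22.8 CPM and replicates 3 and 4 at 10.6 and 10.1 CPM. Among all genes tested, 91.1% varied less between the controls than Nos3 did. In the RefSeq annotation of the rat assembly GRCr8, the far end of Nos3 overlaps Atg9b, an autophagy gene on the opposite strand, by 10 bases. The strand setting of the counting is not stated in the labels, so reads of Atg9b that fall on Nos3 could not be separated.

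Ptgs1 encodes the cyclooxygenase of platelets and of resting tissue. Burn replicates 1 to 4 held 471, 741, 1022 and 689 counts, or 40.9, 49.1, 53.6 and 41.5 CPM. Control replicates 1 to 4 held 789, 744, 570 and 722 counts, or 30.8, 25.8, 28.2 and 25.8 CPM. The groups did not overlap, although the lowest burn library was only 1.33 times the highest control after TMM scaling. The gap was smaller as CPM of the library total, 34.4 in burn replicate 1 against 32.8 in control replicate 1. Their exact 95% intervals then overlapped, 31.4 to 37.6 and 30.6 to 35.2. The mean was 46.3 ± 6.16 CPM in burn and 27.6 ± 2.36 CPM in control (SD, n = 4), a difference of 0.74 on the log2 scale (SE 0.15, edgeR adjusted p = 0.0130) with a 95% interval of 1.32-fold to 2.13-fold. Ptgs1 and Nos3 were thus the 2 of 4 tested genes with no overlap, both higher in burn, where 15.4% of all genes tested were higher without overlap.

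The Ptgs1 call was lost when libraries were scaled by total counts alone, with a log2 fold change of 0.55 (edgeR adjusted p = 0.122). Under that scaling the median over all genes tested went from 0.06 to -0.15. The call was also lost without control replicate 2, where the log2 fold change was 0.70 (edgeR adjusted p = 0.0511). Without burn replicate 3, the highest library, it was 0.66 (edgeR adjusted p = 0.0106). Ptgs1 was among the steadier genes. Its SD was 0.19 log2 units between burn libraries and 0.12 between controls, against medians of 0.52 and 0.25 over all genes tested.

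Ptgs2, the gene with the E-box letters in its printed stretch, encodes the cyclooxygenase that cytokines and growth factors induce, the target of coxib drugs. Burn replicates 1 to 4 held 55, 152, 0 and 21 counts, or 4.78, 10.1, 0 and 1.26 CPM. Control replicates 1 to 4 held 47, 110, 55 and 106 counts, or 1.83, 3.81, 2.72 and 3.80 CPM. After TMM scaling the burn libraries lay on both sides of the controls, with replicates 1 and 2 above all 4 and replicates 3 and 4 below all 4. As CPM of the library total, burn replicate 1 (4.02) was below control replicate 2 (4.10). The exact 95% interval of burn replicate 4, 0.699 to 1.73, also overlapped that of control replicate 1, 1.44 to 2.60. The mean was 4.03 ± 4.51 CPM in burn and 3.04 ± 0.95 CPM in control (SD, n = 4). The log2 fold change was 0.40 (SE 1.04, edgeR adjusted p = 0.809), and its 95% interval ran from 0.258-fold to 6.73-fold. The interval thus held both a fall and a rise of several fold.

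The direction of Ptgs2 was not settled. The log2 fold change was 0.81 without burn replicate 3 (edgeR adjusted p = 0.339), -0.63 without burn replicate 2 (edgeR adjusted p = 0.671) and -1.70 by limma-voom (adjusted p = 0.393). The 0 in burn replicate 3 allows up to 0.189 CPM of that library's total, taking 3 counts as the limit, which is below the lowest control. Burn replicate 3 was also the library in which scarce genes were most often at 0, and the part of this in its Ptgs2 value was not tested. Among all genes tested, 99.7% varied less between burn libraries than Ptgs2 did, an SD of 2.95 log2 units that rests largely on the value set for 0 counts. Without burn replicate 3 the SD was 1.47, and 95.5% of genes varied less. Between controls 82.7% varied less.

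**Figure D2:**
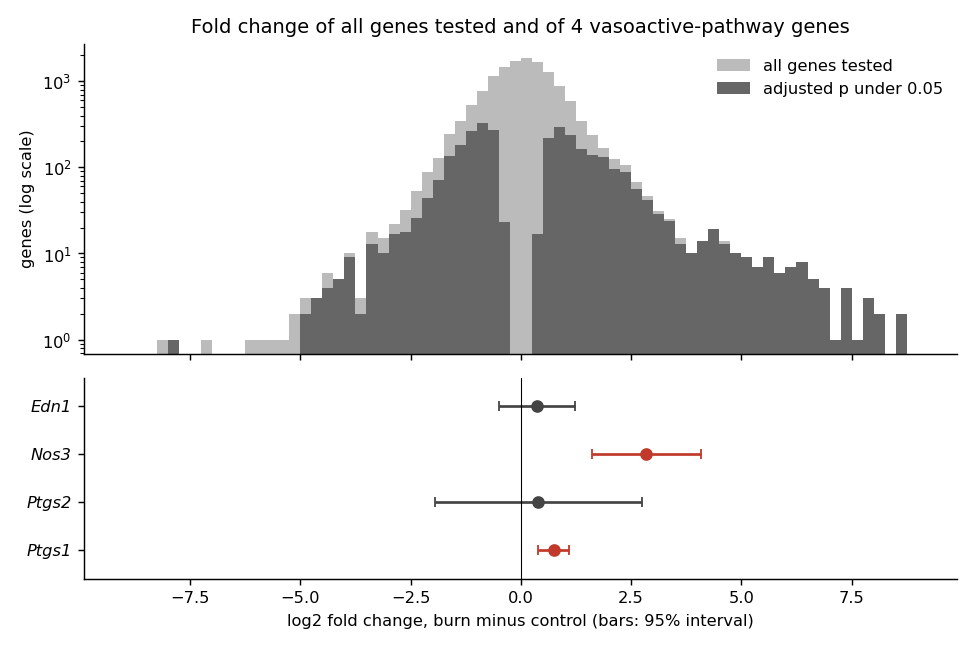
Top, the number of genes (log scale) by log2 fold change, burn minus control, over the 14240 genes tested, with those at an adjusted p under 0.05 in dark grey. Bottom, the log2 fold change with its 95% interval for the 4 genes tested, red where the adjusted p was under 0.05; Nos3 at 2.84 lies in the upper tail, Ptgs1 at 0.74 nearer the centre, and the intervals of Ptgs2 and Edn1 include 0.

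Nos2 encodes the synthase that activated macrophages and other cells make after exposure to cytokines or microbial products. It had 1 count in burn replicate 1, 5 in burn replicate 2 and 0 in burn replicates 3 and 4. All 4 control libraries had 0 counts, which allows up to 0.112 to 0.168 CPM of each library's total. It failed the expression filter and was not tested with the other genes. The 6 burn counts came to 0.0896 CPM of all burn counts, and 3 counts over the control group would be 0.0314 CPM. The pooled burn level was 2.85 times that limit. This figure leaves out the counting error of the burn counts and the spread between libraries, so it is not a lower bound for the fold. Of those 6 counts 5 came from burn replicate 2, and without it the remaining 1 count is below the limit of 3 and gives no fold. In burn replicate 2 the exact 95% interval of the level was 0.0866 to 0.623 CPM, covering counting error only. Fitted with no filter, Nos2 gave no call (edgeR adjusted p = 0.173). RefSeq places a long non-coding RNA that shares 572 bases with the Nos2 gene in GRCr8, and reads of the pair could not be separated.

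Edn1 encodes the precursor of endothelin 1. Burn replicates 1 to 4 held 227, 463, 168 and 586 counts, or 19.7, 30.7, 8.82 and 35.3 CPM. Control replicates 1 to 4 held 420, 657, 315 and 509 counts, or 16.4, 22.8, 15.6 and 18.2 CPM. After TMM scaling, burn replicates 2 and 4 lay above all controls, replicate 1 among them and replicate 3 below them. This order depended on the scaling. As CPM of the library total, burn replicate 1 (16.6) was also below all controls, the lowest at 17.5. Burn replicate 2 (24.7) was then level with control replicate 2 (24.5). With library size alone the log2 fold change was 0.08. The mean was 23.6 ± 11.8 CPM in burn and 18.2 ± 3.22 CPM in control (SD, n = 4), a difference of 0.37 on the log2 scale (SE 0.38, edgeR adjusted p = 0.509) with a 95% interval of 0.711-fold to 2.36-fold. Without burn replicate 3 the burn mean was 28.6 ± 7.99 CPM (SD, n = 3) and the log2 fold change 0.64 (SE 0.23, edgeR adjusted p = 0.0692), still short of the threshold.

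The 4 burn libraries did not rank alike across the genes. Burn replicate 2 was the highest burn library for Nos3, Ptgs2 and Nos2, burn replicate 3 for Ptgs1 and burn replicate 4 for Edn1. Burn replicate 3 was the lowest burn library for Nos3, Ptgs2 and Edn1. Levels were not compared between genes, because gene lengths for the annotation behind the counts were not used here.

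The inducible and the constitutive form were then compared inside each library, where depth and scaling cancel. Ptgs2 had 11.7, 20.5, 0 and 3.05 counts for every 100 counts of Ptgs1 in the burn libraries (replicates 1 to 4). Among the controls (replicates 1 to 4) it had 5.96, 14.8, 9.65 and 14.7. Burn replicate 2 lay above all controls, replicate 1 among them and replicates 3 and 4 below them. The mean log2 ratio was -5.34 ± 3.94 in burn and -3.23 ± 0.62 in control (SD, n = 4), with a pseudocount of 0.5. The difference of -2.11 was within the spread (two-sided exact permutation test over 70 divisions of the libraries, p = 0.400, adjusted over 3 ratios p = 0.400). Without burn replicate 3 it was -0.22.

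Nos2 was at 0 beside Nos3 in 6 libraries. It had 0.102 and 0.132 counts for every 100 of Nos3 in burn replicates 1 and 2. The log2 ratio was -10.25 ± 1.01 for burn and -9.58 ± 0.77 for control (SD, n = 4). An exact permutation test, two-sided, gave p = 0.343 and adjusted p = 0.400. With so few Nos2 counts this ratio follows Nos3 and the pseudocount.

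Edn1, the constrictor, was set against Nos3, the source of a dilator. It had 23.2, 12.2, 17.6 and 45.3 counts for every 100 of Nos3 in the burn libraries (replicates 1 to 4), and 77.1, 99.7, 147 and 181 among the controls (replicates 1 to 4). No burn library reached a control library. The log2 ratio was -2.19 ± 0.80 in burn and 0.26 ± 0.55 in control (SD, n = 4), a difference of -2.45, or 5.47-fold. The two-sided exact permutation test gave p = 0.0286, the smallest that 4 against 4 libraries allow, and p = 0.0857 after adjustment over the 3 ratios, so the difference did not pass the threshold after adjustment. The ratio differed by -2.80 to -2.17 when each library was left out in turn. On their own, Nos3 had a log2 fold change of 2.84 and Edn1 one of 0.37, which did not pass the test. The ratio thus largely repeats the Nos3 difference and is not a separate result.

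**Figure D3:**
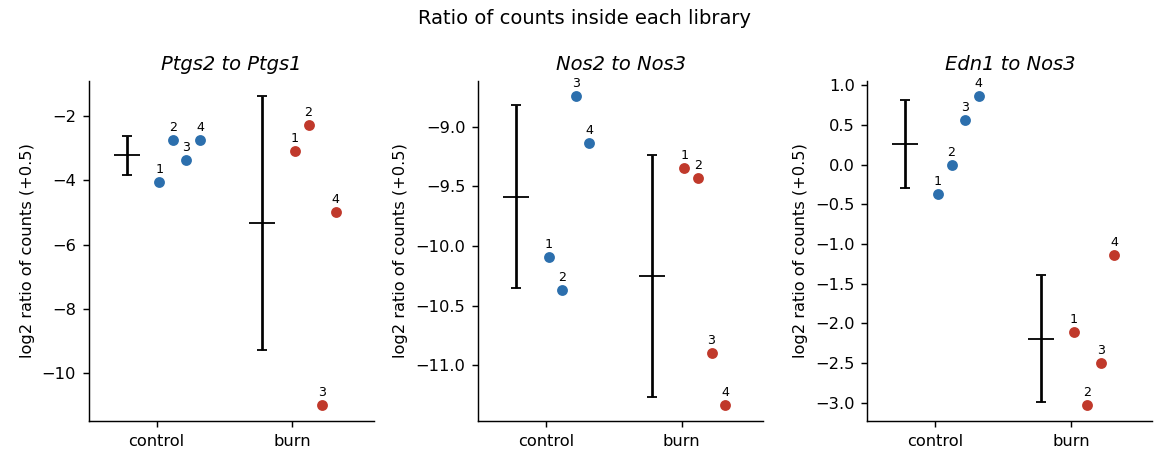
Log2 ratio of counts, with 0.5 added to each, inside each library for 3 gene pairs; points are libraries with their replicate number, bars are the group mean and SD (n = 4), and the vertical scales differ between panels. The groups separate for Edn1 to Nos3 and overlap for Ptgs2 to Ptgs1 and for Nos2 to Nos3, where Nos2 is at 0 counts in 6 libraries.

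The profiles over the 8 libraries were set beside those of all genes tested, as the root mean square difference of log2 CPM centred on each gene's mean. The gene nearest to Ptgs2 was ENSRNOG00000016112, at 0.40 log2 units, with a difference of 0.06 on the log2 scale (edgeR adjusted p = 0.975). The gene nearest to Edn1 was ENSRNOG00000000964, at 0.18 log2 units, with a difference of 0.36 on the log2 scale (edgeR adjusted p = 0.644). Neither neighbour stood apart, since the second nearest gene was at 0.41 from Ptgs2 and at 0.19 from Edn1. Each named neighbour was picked as the nearest of all genes tested, so none of the 4 genes could lie closer to Ptgs2 or Edn1. The distances between the 4 genes are therefore given as a description only. Ptgs1 and Edn1 were 0.71 apart, Nos3 and Ptgs1 1.20, and Ptgs2 and Nos3, the farthest pair, 2.30. Without burn replicate 3 these 3 distances were 0.31, 1.28 and 1.46. The same neighbours were then the second nearest of all genes tested, ENSRNOG00000016112 at 0.20 from Ptgs2 and ENSRNOG00000000964 at 0.14 from Edn1.

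**Figure D4:**
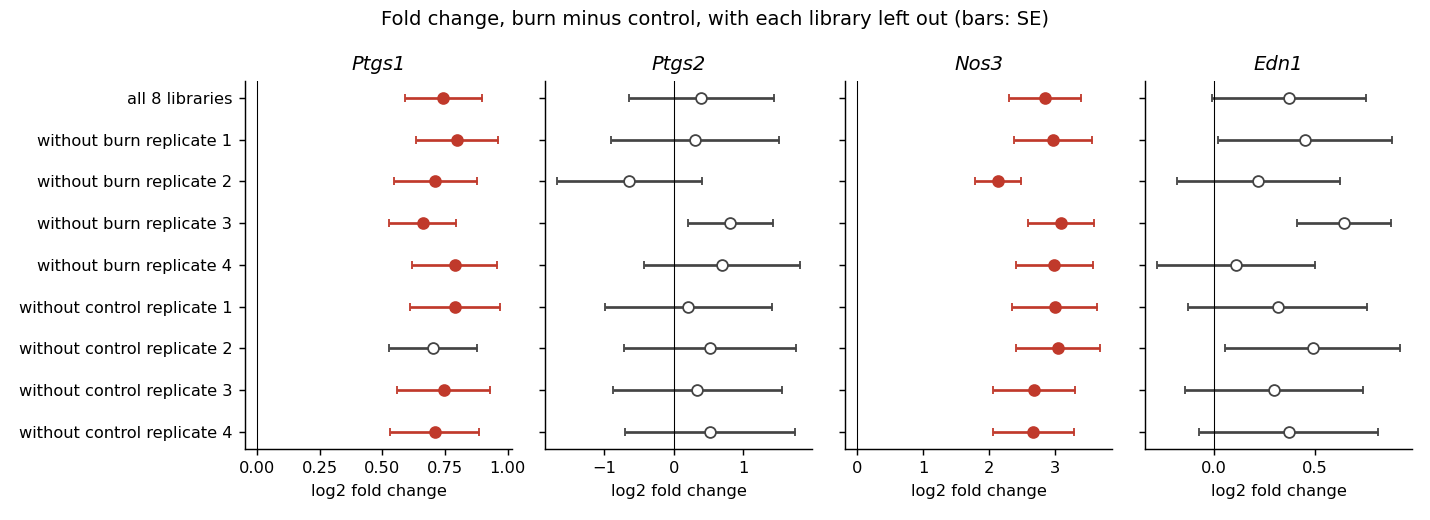
Log2 fold change, burn minus control, for 4 genes with all libraries and with each library left out in turn; bars are the standard error, filled red points have an edgeR adjusted p under 0.05, and the horizontal scales differ. Nos3 stays past the threshold in every refit, from 2.13 to 3.09, Ptgs1 loses it without control replicate 2, and Ptgs2 turns to -0.63 without burn replicate 2.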

How the data were processed

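Poly(A)-enriched RNA from 8 skin samples was sequenced, and the authors deposited raw read counts per Ensembl rat gene, 1 column per library. The submitters' processing notes name TopHat2 2.0.9, HTSeq 0.5.4p3, edgeR, R 3.0.1, limma and the build Rnor_5.0. Their roles, the annotation release and the strand setting are not stated there. Groups came from the treatment label. Replicate numbers follow accession order and pair nothing, and nothing says that a group's libraries came from separate rats, so p-values cover only the spread among these libraries, which may be technical.

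Counts were tested with edgeR 4.0.16 in R 4.3.3 (TMM, default expression filter, robust quasi-likelihood fit on group, two-sided, Benjamini-Hochberg adjustment over the 14240 genes that passed). The standard error is the log2 fold change over the square root of F, and 95% intervals use the fit's degrees of freedom. Alternatives used limma 3.58.1, DESeq2 1.42.0 and sva 3.50.0. Both scripts were tested on simulated or constructed data. Gene pairs were compared by exact permutation of the difference in mean log2 ratio.

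The rule for named genes took the 5 genes and, by identifier, the 1 gene nearest in profile to Ptgs2 and to Edn1. The genes and lists were chosen with earlier results of these data known, and the check of genes at 2 to 8 CPM and the fits of Nos2 with no filter were added after seeing the data. The 8 pathway lists and 9 cell type lists were not analysed here, because 0 of 47357 reference genes carry an Ensembl rat identifier. With 3 counts as the limit, a count of 0 allows 0.112 to 0.219 CPM (counts scaled to the library total). Intervals and limits cover counting error only.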

Additional observations from a re-analysis of the deposited data

How the results depend on the processing

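No paired analysis was possible because the labels give no animal number and the replicate numbers only follow accession order. Of 60 refits of the fold changes of the 4 tested genes, 55 kept both direction and call. Ptgs1 fell short with library size alone (log2 fold change 0.55) and without control replicate 2, and leaving out 1 library gave 0.66 to 0.80. Ptgs2, never past the threshold, changed sign by limma-voom (-1.70), with 1 surrogate variable (-0.52) and without burn replicate 2, and ran from -0.63 to 0.81 with 1 library left out. The cause was not tested. Nos3 kept its call in all 15 refits, at log2 fold changes of 2.13 to 3.09 and adjusted p-values of 1.73e-06 to 0.0377 over edgeR, limma-voom and DESeq2. Edn1 gave 0.08 to 0.64 with no call. Nos2 had no adjusted p by DESeq2 and was fitted with no filter throughout, since it failed the filter; the limma-voom, surrogate variable and 1 CPM settings were not run for it. None of the 3 ratios passed after adjustment in any refit. An adjusted p under the threshold would need more than 1 of the 3 ratios at or near the smallest possible p, so these refits say nothing about stability. For Nos2 the limit is the low count, at most 5 in any library, and for Ptgs2 the spread between burn libraries. Screening 16 groups of 4 values for 1 library far from the rest picked 0. The Nos2 controls, all equal, could not be picked. Burn replicate 3, which stood apart in genes detected, was not picked for its 0 counts of Ptgs2, so the screen does not clear any library.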
